A study of Homo sapiens with 24 samples.

Results

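The 10 genes described here, SOX2, NES, OLIG2, GFAP, VIM, S100B, CD44, PROM1, CHI3L1 and TNC, are markers of neural and glial lineages and of the mesenchymal state of glioblastoma. They were taken as a named list, by symbol and not by a threshold on measured values, and all 10 were found by gene symbol among the 57736 genes of the count table. The study asked how cells that had lost DAXX or ATRX, partners in a chaperone complex for histone H3.3, respond to DNA damage. Polyadenylated RNA was sequenced by a method that reads the 3′ end of each transcript (QuantSeq) in 24 libraries of U87 glioblastoma cells, given in the study's methods as U87-T, a derivative transduced with a TERT transgene flanked by Lox sites. They belong to 2 series of 12, named after DAXX and ATRX. Every series holds its own WT cells and one knockout line, each untreated (control) or exposed to etoposide, an inhibitor of topoisomerase II, with 3 libraries in each of the 8 groups.

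The WT cells carried an empty Cas9 lentiviral vector. DAXX_KO and ATRX_KO were each 1 single-cell clone made by CRISPR/Cas9 editing, positive for alternative lengthening of telomeres and recovered after continuous passage, so an effect of the knockout and a trait of the clone cannot be told apart. The dose and duration of etoposide for these libraries are not given in the labels. The study states in general that its replicates were biological, and the labels do not say whether the 3 libraries of a group came from separate cultures. The p-values measure only the spread between these libraries, which may be technical. As these are bulk samples, fewer cells of a type and less RNA per cell cannot be told apart.

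Glioblastoma cells are commonly placed along lineage states that resemble neural progenitors, oligodendrocyte progenitors and astrocytes, and along a mesenchymal state with genes of the extracellular matrix, adhesion and wound response. SOX2 and OLIG2 are transcription factors that hold cells in stem and oligodendrocyte progenitor states. Nestin (NES), vimentin (VIM) and GFAP are intermediate filament proteins whose balance changes as progenitors become astrocytes, S100B is a calcium-binding protein of astrocytes, and PROM1 is a membrane glycoprotein used to sort glioma stem cells. CD44 is a receptor for hyaluronan, CHI3L1 a secreted chitinase-like glycoprotein and TNC (tenascin-C) a matrix glycoprotein, and all of these are used as markers of the mesenchymal state.

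The genes lie on 8 chromosomes in GRCh37, the build of the deposited counts. SOX2 (ENSG00000181449) is at chr3:181429713-181432224 on the plus strand, NES (ENSG00000132688) at chr1:156638555-156647199 on the minus strand, OLIG2 (ENSG00000205927) at chr21:34398243-34401504 on the plus strand and VIM (ENSG00000026025) at chr10:17270240-17279592 on the plus strand. CD44 (ENSG00000026508) is at chr11:35160429-35253949 on the plus strand, CHI3L1 (ENSG00000133048) at chr1:203148059-203155832 on the minus strand and TNC (ENSG00000041982) at chr9:117781854-117880486 on the minus strand. GFAP (ENSG00000131095) is at chr17:42980527-42994305, S100B (ENSG00000160307) at chr21:48018517-48025121 and PROM1 (ENSG00000007062) at chr4:15964699-16086001, all on the minus strand. The annotation gives each of them as a protein-coding gene.

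RefSeq promoter sequences (table of build GRCh38.p14) matched 7 of the 10 genes, SOX2, NES, VIM, CD44, PROM1, CHI3L1 and TNC. The 6 printed here belong to the genes that had enough reads to be tested in both series, so that the sequence at an annotated start of each can be read beside its values. Each runs 5′ to 3′ along the gene's strand from 250 bases before to 50 bases after the transcription start and was placed in GRCh37 by an exact match. For CD44 and TNC the RefSeq start lies inside the gene as annotated in GRCh37, and for the other four it is the annotated gene start. Capitals mark the GC box GGGCGG and the TATA box TATAAA on either strand. The windows are chr3:181429463-181429762 (SOX2, plus strand), chr1:156647150-156647449 (NES, minus strand), chr10:17269990-17270289 (VIM, plus strand), chr11:35160468-35160767 (CD44, plus strand), chr1:203155783-203156082 (CHI3L1, minus strand) and chr9:117880387-117880686 (TNC, minus strand).
SOX2: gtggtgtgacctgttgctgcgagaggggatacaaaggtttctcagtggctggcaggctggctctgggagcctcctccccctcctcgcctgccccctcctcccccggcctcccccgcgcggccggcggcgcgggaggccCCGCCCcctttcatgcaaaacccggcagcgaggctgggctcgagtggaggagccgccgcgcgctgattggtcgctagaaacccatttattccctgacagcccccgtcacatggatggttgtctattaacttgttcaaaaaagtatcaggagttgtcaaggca
NES: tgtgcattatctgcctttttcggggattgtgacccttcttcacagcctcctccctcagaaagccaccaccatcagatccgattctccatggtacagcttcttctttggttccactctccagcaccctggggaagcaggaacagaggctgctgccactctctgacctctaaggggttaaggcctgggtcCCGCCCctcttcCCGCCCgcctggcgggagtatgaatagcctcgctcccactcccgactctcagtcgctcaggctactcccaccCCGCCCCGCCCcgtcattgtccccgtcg
VIM: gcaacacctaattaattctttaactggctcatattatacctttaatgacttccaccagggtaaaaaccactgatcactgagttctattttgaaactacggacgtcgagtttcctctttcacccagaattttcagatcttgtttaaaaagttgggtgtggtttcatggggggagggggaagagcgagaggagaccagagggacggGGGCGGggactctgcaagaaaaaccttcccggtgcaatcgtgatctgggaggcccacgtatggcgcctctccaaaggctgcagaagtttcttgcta
CD44: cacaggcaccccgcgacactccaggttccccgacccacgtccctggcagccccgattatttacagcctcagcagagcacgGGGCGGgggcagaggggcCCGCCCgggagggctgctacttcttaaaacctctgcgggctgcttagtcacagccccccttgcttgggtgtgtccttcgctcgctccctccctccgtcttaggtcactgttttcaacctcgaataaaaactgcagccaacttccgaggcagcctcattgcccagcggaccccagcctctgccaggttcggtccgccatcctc
CHI3L1: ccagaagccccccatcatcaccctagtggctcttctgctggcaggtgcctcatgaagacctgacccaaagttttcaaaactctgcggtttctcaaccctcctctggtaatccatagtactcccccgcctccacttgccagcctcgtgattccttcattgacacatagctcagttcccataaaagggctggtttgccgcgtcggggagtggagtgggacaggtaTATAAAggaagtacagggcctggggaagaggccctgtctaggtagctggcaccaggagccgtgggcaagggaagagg
TNC: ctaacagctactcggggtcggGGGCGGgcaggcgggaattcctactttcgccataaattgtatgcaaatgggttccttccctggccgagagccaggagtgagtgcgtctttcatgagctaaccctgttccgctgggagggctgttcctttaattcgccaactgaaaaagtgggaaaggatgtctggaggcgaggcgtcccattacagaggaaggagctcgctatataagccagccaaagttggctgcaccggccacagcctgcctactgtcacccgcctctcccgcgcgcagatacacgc

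Of these 6 windows, that of CHI3L1 holds the letters TATAAA, starting 27 bases before its start, and no GC box. The other five hold the GC box and not TATAAA, with 4 matches in NES, of which 2 overlap, 2 in CD44 and 1 each in SOX2, VIM and TNC. Among all 35116 promoters of the table, 44.954% hold a GC box and 11.53% hold TATAAA. None of the 6 windows holds the AP-1 motif TGANTCA, the NF-kB motif or the p53 half-site on either strand, which 7.709%, 0.558% and 6.632% of all promoters hold. A CCAAT box is present in SOX2 alone of the 6, beside 34.614% of all promoters. The number of CpG pairs ranged from 7 in CHI3L1 to 20 in SOX2, against a median of 14 over all promoters. These are matches of letters in a short window and say nothing of whether a factor binds there.

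Total counts per library lay between 6928950 and 10410014 for the DAXX series, and between 10124817 and 13298557 for that of ATRX. The edited genes followed the titles of the libraries. DAXX fell by 2.53 on the log2 scale in DAXX_KO control cells (SE 0.15, edgeR adjusted p = 7.34e-11) and ATRX by 1.25 in ATRX_KO control cells (SE 0.090, edgeR adjusted p = 9.38e-09), while ATRX rose by 0.76 in the DAXX_KO libraries, whose genotype label names ATRX. Markers of other cell types were checked as well. Of the microglia list, 3 of 7 genes passed 3 counts in any library, with AIF1, CX3CR1, P2RY12 and C1QA at or under 3 counts everywhere, and the counts of passing genes were 2 of the 4 endothelial, 4 of 5 epithelial, 2 of 5 melanocyte and neural crest, 8 of 8 neuron and 6 of 6 mature oligodendrocyte genes found in the table. The summed level of the neuron list moved with genotype, from 496 to 550 CPM in DAXX series WT control libraries to 322 to 344 in DAXX_KO, and from 684 to 717 in ATRX series WT to 389 to 406 in ATRX_KO. Most of that sum was TUBB3, which fell from a mean of 486 to 268 CPM in DAXX_KO and from 654 to 367 CPM in ATRX_KO, while SNAP25 was called higher in both lines and SYT1 higher in DAXX_KO and lower in ATRX_KO. The mature oligodendrocyte sum went from 118 to 119 CPM in DAXX series WT control libraries to 97.7 to 109 in DAXX_KO, and from 121 to 131 in ATRX series WT to 96.2 to 104 in ATRX_KO. The microglia sum, mostly CD68, went from 32.8 to 34.1 CPM in ATRX series WT to 21.0 to 25.8 in ATRX_KO. In the DAXX series it did not fall, with 26.3 to 30.5 CPM in WT control libraries and 30.4 to 31.0 in DAXX_KO. The part of these lists in the results was not tested.

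S100B and GFAP, markers of astrocytes, and PROM1, used to sort glioma stem cells, were at or near zero in this line. Some other astrocyte genes were not. Of the 14 astrocyte list genes described below, the filter on low counts kept 8 in the DAXX and 9 in the ATRX series. Others of that list were also near zero, such as APOE with at most 7 counts and SPARCL1 with at most 5 in any library. S100B had 0 counts in all 24 libraries, which allows up to 3 counts in each, or 0.210 to 0.402 CPM (counts relative to the library total scaled by the trimmed mean of M-values, TMM). PROM1 had 0 counts in 19 libraries and at most 3 in the others. GFAP had 0 to 6 counts per library, and its single value above 3 was in replicate 2 of ATRX_KO control cells, where replicates 1 and 3 had 1 and 2 counts. No difference between groups in S100B, PROM1 or GFAP was detectable at this depth, and none of the 3 passed the filter on low counts in either series. GFAP shares 2232 exonic bases with CCDC103 and 1958 with FAM187A on the opposite strand, and whether the counting used strand is not given in the sources used here.

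OLIG2 was also near the limit, with 0 to 17 counts per library. Within a series it was tested in the ATRX series alone, and it was also tested in the comparisons between series. Genes entered the test when edgeR's filter found at least 10 counts, scaled to library size, in enough libraries and a total of 15. This left 15247 genes and 6 of the 10 markers in the DAXX series (SOX2, NES, VIM, CD44, CHI3L1 and TNC) and 16371 genes and 7 markers in the ATRX series (the same with OLIG2).

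**Figure D1:**
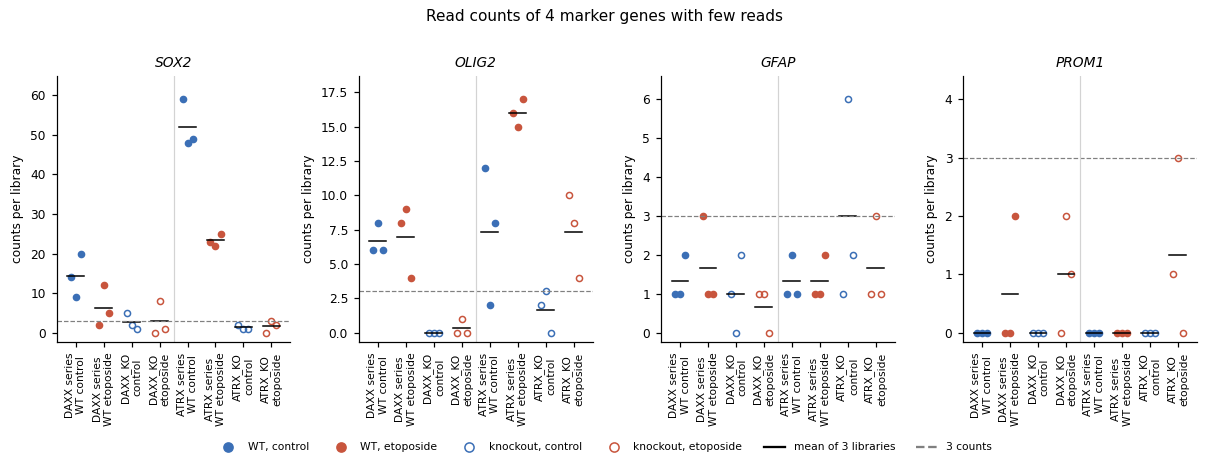
Read counts per library of SOX2, OLIG2, GFAP and PROM1 in the 8 groups (x axis), with filled circles for WT, open circles for knockout, blue for control, red for etoposide, a bar at the mean of 3 libraries and a dashed line at 3 counts. SOX2 reached 59 counts in WT control cells of the ATRX series and no more than 3 in any ATRX_KO library, and OLIG2 had 0 or 1 count in all 6 DAXX_KO libraries.

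Knockout control cells were compared with the WT control cells of their series. Both knockout lines had less SOX2, NES, VIM and CD44 and more CHI3L1 than their WT cells, and OLIG2 was lower in both by its counts. Among the markers tested, 6 of 6 were called in DAXX_KO (an adjusted p under 0.05), 2 higher and 4 lower, where 53.4% of all 15247 genes tested were called, 26.7% higher and 26.6% lower. In ATRX_KO, 6 of 7 were called, 1 higher and 5 lower, where 41.8% of 16371 genes were called, 20.8% higher and 21% lower. The sizes ranged from a fall of 1.27-fold for NES to a rise of 6.13-fold for CHI3L1 in DAXX_KO.

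SOX2, the stem cell transcription factor, had 14, 9 and 20 counts in the 3 WT control libraries of the DAXX series and 5, 2 and 1 in DAXX_KO. The ATRX series had 59, 48 and 49 counts in WT control cells and 2, 1 and 1 in ATRX_KO. The knockout libraries lay below all WT libraries in both series. The fall was 2.20 on the log2 scale in DAXX_KO (SE 0.76, edgeR adjusted p = 0.0192). That call was lost without replicate 3 of the DAXX series WT control cells (log2 fold change −1.82, adjusted p = 0.0906) or without replicate 2 or 3 of DAXX_KO control cells (−2.07 with adjusted p = 0.0671 and −1.80 with adjusted p = 0.0883). In ATRX_KO, where 4 counts stood against 156, the WT level was 38.6 times higher (95% counting interval 14.8 to 143) and the edgeR adjusted p was 2.27e-07.

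OLIG2, the oligodendrocyte progenitor factor, had 6, 8 and 6 counts in WT control cells of the DAXX series and 0 in all 3 DAXX_KO control libraries. Against a floor of 3 counts in each library, the WT level was at least 2.00-fold higher. In the ATRX series it had 12, 2 and 8 counts in WT control cells and 2, 3 and 0 in ATRX_KO, with the groups overlapping. The WT level was 4.35 times that of ATRX_KO (95% counting interval 1.61 to 14.7, edgeR adjusted p = 0.0488). This call was lost without replicate 1 (adjusted p = 0.209) or 3 (0.105) of WT control cells or replicate 1 (0.0874) or 3 (0.158) of ATRX_KO control cells. Over the 30 tested genes on each side of OLIG2 on chromosome 21, the median log2 fold change in ATRX_KO was −0.76.

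NES, the filament protein of neural progenitors, stood at 79.2, 72.6 and 74.1 CPM in WT control cells of the DAXX series and at 55.2, 57.4 and 60.9 CPM in DAXX_KO. Its values in the ATRX series were 70.4, 89.6 and 89.4 CPM in WT control cells and 69.5, 54.2 and 52.6 CPM in ATRX_KO. No knockout library reached the lowest WT library of its series, although replicate 1 of ATRX_KO came close to replicate 1 of WT. NES fell by 0.35 on the log2 scale in DAXX_KO (SE 0.073, edgeR adjusted p = 0.000476) and by 0.50 in ATRX_KO (SE 0.13, edgeR adjusted p = 0.00581). When libraries were scaled by their totals alone, which moved the median of all genes in DAXX_KO against WT by 0.18, the value in DAXX_KO was −0.16 and no longer called (adjusted p = 0.0758).

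VIM was at 6298, 5846 and 5496 CPM in WT control cells of the DAXX series and at 3617, 3865 and 3606 CPM in DAXX_KO. In ATRX_KO it was at 3752, 3870 and 5343 CPM, against 5925, 5397 and 5474 CPM in WT control cells of that series. Replicate 3 of ATRX_KO control cells thus came close to the WT libraries without reaching them, while the 3 DAXX_KO libraries were far below theirs. VIM fell by 0.64 on the log2 scale in DAXX_KO (SE 0.13, edgeR adjusted p = 0.00025) and by 0.37 in ATRX_KO (SE 0.11, edgeR adjusted p = 0.0148). The ATRX_KO call was lost without replicate 1 of WT control cells (log2 fold change −0.32, adjusted p = 0.0641) or without replicate 1 or 2 of ATRX_KO control cells (−0.27 with adjusted p = 0.086 and −0.30 with adjusted p = 0.069). The median log2 fold change of the 60 tested genes around VIM on chromosome 10 was 0.54 in DAXX_KO, the opposite direction. VIM shares 656 exonic bases with the antisense gene VIM-AS1, which had 4 to 28 counts per library.

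CD44, the hyaluronan receptor, was at 1077, 1014 and 1010 CPM in WT control cells of the DAXX series and at 787, 782 and 776 CPM in DAXX_KO. In the ATRX series it was at 1056, 1026 and 1047 CPM in WT control cells and at 567, 631 and 629 CPM in ATRX_KO. Neither pair of groups overlapped. CD44 fell by 0.37 on the log2 scale in DAXX_KO (SE 0.055, edgeR adjusted p = 1.06e-05) and by 0.78 in ATRX_KO (SE 0.066, edgeR adjusted p = 6.96e-08), and both calls held under each of 14 alternatives. Scaling by library totals alone reduced the value in DAXX_KO to −0.19 (adjusted p = 0.00909).

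CHI3L1, the chitinase-like glycoprotein, moved the other way. It had 5, 6 and 2 counts in WT control cells of the DAXX series and 26, 22 and 24 in DAXX_KO, and 25, 18 and 16 counts in WT control cells of the ATRX series and 54, 61 and 87 in ATRX_KO. Every knockout library was above every WT library of its series. CHI3L1 rose by 2.62 on the log2 scale in DAXX_KO (SE 0.37, edgeR adjusted p = 7.3e-06) and by 1.78 in ATRX_KO (SE 0.24, edgeR adjusted p = 1.67e-05). Its tested neighbours on chromosome 1 had medians of −0.55 and −0.47. The group means were 3.04 ± 0.234 CPM in DAXX_KO and 5.56 ± 1.16 CPM in ATRX_KO (SD, n = 3), so the gene remained at few reads even where it was higher.

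TNC, the matrix glycoprotein, was called higher in DAXX_KO and not called in ATRX_KO, with group means of 78.2 and 76.4 CPM. The WT control means of their series were 60.5 and 99.3 CPM. Single libraries were at 69.2, 58.7 and 53.6 CPM in WT control cells of the DAXX series and at 75.2, 88.6 and 70.7 CPM in DAXX_KO. TNC rose there by 0.40 on the log2 scale (SE 0.10, edgeR adjusted p = 0.00282). Its 60 tested neighbours on chromosome 9 had a median of 0.34 there, 0.059 below TNC, and the call was lost when all 24 libraries shared 1 model (adjusted p = 0.14). In ATRX_KO the values were 46.5, 61.9 and 121 CPM, against 111, 88.7 and 97.9 CPM in WT control cells, with replicate 3 above all 3 WT libraries. The log2 fold change was −0.37 (SE 0.25, edgeR adjusted p = 0.244), and without that library it was −0.87 and called (adjusted p = 0.000738).

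**Figure D2:**
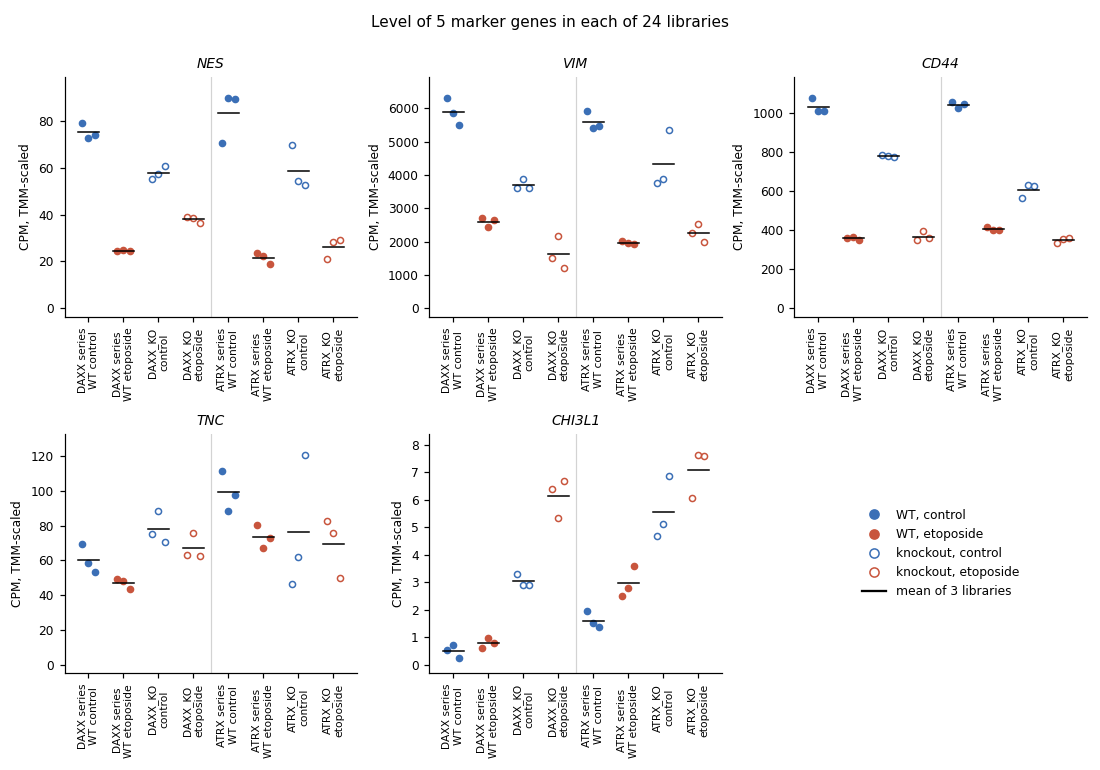
Level of NES, VIM, CD44, TNC and CHI3L1 in each of the 24 libraries (y axis, CPM scaled by TMM, starting at 0), by group (x axis), with filled circles for WT, open circles for knockout, blue for control, red for etoposide and a bar at the mean of 3 libraries. NES, VIM and CD44 are lower in every etoposide group than in its control group, CHI3L1 is higher in all 12 knockout libraries than in the WT libraries of the same series and treatment, and replicate 3 of ATRX_KO control cells stands apart at 121 CPM of TNC.

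The order of the 8 group means showed which neighbours overlapped. For CD44 the WT control cells of both series came first and overlapped each other, followed without overlap by DAXX_KO control, ATRX_KO control and ATRX series WT etoposide cells, and then by 3 etoposide groups that overlapped in turn. For SOX2, WT control cells of the ATRX series (4.26 ± 0.285 CPM) stood above the WT etoposide cells of that series without overlap, and every later pair in the order overlapped. For CHI3L1 the order was led by ATRX_KO etoposide (7.10 ± 0.890 CPM) and ended with WT control cells of the DAXX series (0.491 ± 0.233 CPM).

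With etoposide, NES, VIM and CD44 fell in WT cells of both series, in DAXX_KO and in ATRX_KO, by 1.51-fold to 3.74-fold. Among the markers tested, 4 of 6 were called in WT cells of the DAXX series, all lower, where 60.2% of all genes were called, 29.6% higher and 30.6% lower. In WT cells of the ATRX series 6 of 7 were called, 2 higher and 4 lower, where 61.5% of all genes were called, 31.7% higher and 29.8% lower. In DAXX_KO 4 of 6 were called, 1 higher and 3 lower, where 54.5% of all genes were called, 26.8% higher and 27.8% lower. In ATRX_KO 4 of 7 were called, 1 higher and 3 lower, where 49.5% were called, 24.3% higher and 25.2% lower. These comparisons use the same control libraries as the knockout comparisons above.

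NES was at 24.4, 25.0 and 24.5 CPM in etoposide-treated WT cells of the DAXX series and at 39.1, 38.6 and 36.5 CPM in etoposide-treated DAXX_KO cells. It was at 23.5, 22.4 and 18.7 CPM in WT cells of the ATRX series and at 21.1, 28.2 and 29.1 CPM in ATRX_KO. All of these libraries were below the control libraries of the same cells. NES fell by 1.57 (SE 0.080) and 1.90 (SE 0.14) on the log2 scale in the WT cells of the DAXX and ATRX series, by 0.60 (SE 0.077) in DAXX_KO and by 1.13 (SE 0.14) in ATRX_KO, with edgeR adjusted p-values from 2.35e-12 to 4e-06.

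CD44 was at 362, 365 and 352 CPM in etoposide-treated WT cells of the DAXX series and at 349, 395 and 359 CPM in DAXX_KO. It was at 417, 403 and 401 CPM in WT cells of the ATRX series and at 337, 358 and 363 CPM in ATRX_KO. The DAXX series groups, apart in control cells, overlapped under etoposide. Those of the ATRX series came closer together and remained without overlap. The falls were 1.48 (SE 0.056) and 1.32 (SE 0.067) on the log2 scale in WT cells of the DAXX and ATRX series, 1.08 (SE 0.056) in DAXX_KO and 0.75 (SE 0.066) in ATRX_KO, with edgeR adjusted p-values from 2.71e-14 to 8.09e-08.

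VIM was at 2714, 2444 and 2636 CPM in etoposide-treated WT cells of the DAXX series and at 1512, 2155 and 1209 CPM in DAXX_KO, where replicate 2 stood above its group. It was at 2012, 1952 and 1926 CPM in WT cells of the ATRX series and at 2263, 2525 and 1978 CPM in ATRX_KO. No etoposide library reached a control library of the same cells. VIM fell by 1.13 (SE 0.13) and 1.47 (SE 0.12) on the log2 scale in WT cells, by 1.18 (SE 0.13) in DAXX_KO and by 0.90 (SE 0.12) in ATRX_KO, with edgeR adjusted p-values from 9.83e-09 to 5.66e-06.

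CHI3L1 and OLIG2 were the markers called higher with etoposide. CHI3L1 had 53, 51 and 59 counts in etoposide-treated DAXX_KO cells, all above the control libraries, and rose by 1.02 on the log2 scale (SE 0.27, edgeR adjusted p = 0.00301). In WT cells of the ATRX series it had 28, 30 and 37 counts and rose by 0.91 (SE 0.26, edgeR adjusted p = 0.00632). In WT cells of the DAXX series it had 5, 8 and 6 counts (log2 fold change 0.72, SE 0.46, adjusted p = 0.208) and in ATRX_KO 70, 109 and 103 (0.39, SE 0.21, adjusted p = 0.135), and in both the treated libraries overlapped the controls.

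OLIG2 had 16, 15 and 17 counts in etoposide-treated WT cells of the ATRX series and 10, 8 and 4 in ATRX_KO, above the control libraries in both. The log2 fold change was 1.34 in WT cells (SE 0.56, edgeR adjusted p = 0.0471) and the level in ATRX_KO was 4.03 times that of control cells (95% counting interval 1.49 to 13.6, edgeR adjusted p = 0.0469). Both calls rest on few counts. In WT cells the call was lost without replicate 2 (adjusted p = 0.184) or 3 (0.0821) of the control or any 1 of the 3 etoposide libraries (0.0907, 0.085 and 0.122), and in ATRX_KO without replicate 1 (0.0809) or 3 (0.162) of the control or replicate 1 (0.155) or 2 (0.089) of the etoposide libraries. In the DAXX series OLIG2 had 8, 9 and 4 counts in etoposide-treated WT cells and 0, 1 and 0 in DAXX_KO.

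SOX2 had 2, 12 and 5 counts in etoposide-treated WT cells of the DAXX series and 0, 8 and 1 in DAXX_KO, where replicate 2 alone held most of the reads. In WT cells of the ATRX series it had 23, 22 and 25 counts, below all control libraries, and fell by 0.93 on the log2 scale (SE 0.32, edgeR adjusted p = 0.0186). That call was lost without replicate 1 of the WT control cells (log2 fold change −0.87, adjusted p = 0.0617) and with all 24 libraries in 1 model (−0.95, adjusted p = 0.0711). TNC fell by 0.32 in WT cells of the DAXX series (SE 0.11, edgeR adjusted p = 0.0141), with 49.3, 48.1 and 43.6 CPM under etoposide, a call that was lost without replicate 1 of the control (−0.22, adjusted p = 0.113) or replicate 3 of the etoposide libraries (−0.28, adjusted p = 0.0595) and with all 24 libraries in 1 model (−0.34, adjusted p = 0.214). In WT cells of the ATRX series TNC was at 80.3, 67.0 and 73.0 CPM, below all control libraries, with a log2 fold change of −0.40 (adjusted p = 0.179) that was called when only these 2 groups were fitted (adjusted p = 0.000392) or no filter on low counts was used (2.22e-05). Its log2 fold change was −0.21 in DAXX_KO (adjusted p = 0.0881) and −0.11 in ATRX_KO (adjusted p = 0.748). The DAXX_KO value became −0.28 without replicate 3 of the control (adjusted p = 0.0406) and −0.31 without replicate 2 of the etoposide libraries (adjusted p = 0.0183).

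**Figure D3:**
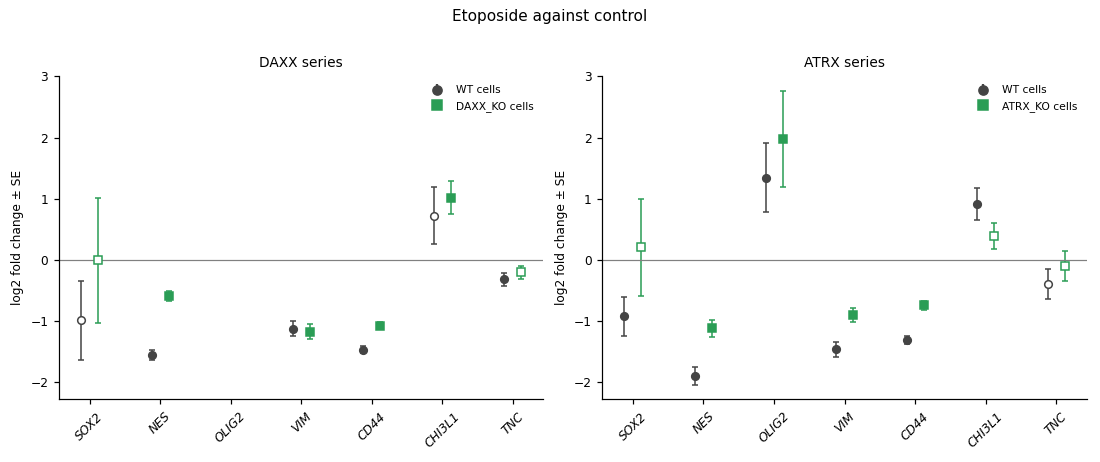
Log2 fold change of etoposide against control with its standard error (y axis) for each tested marker (x axis) in WT cells (circles) and knockout cells (squares) of the DAXX series (left) and the ATRX series (right), with filled symbols for an adjusted p under 0.05. NES and CD44 fell less in both knockout lines than in the WT cells of the same series, and OLIG2 was tested in the ATRX series alone.

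Whether etoposide acted differently in knockout and WT cells was tested by an interaction term, the log2 fold change of etoposide in knockout cells minus that in WT cells. NES and CD44 fell less in both knockout lines. In the DAXX series 2 of 6 markers were called, both positive, where 14.2% of all genes were called, 8.38% positive and 5.79% negative. For ATRX_KO, 3 of 7 were called, all positive, where 16% of all genes were called, 8.36% positive and 7.64% negative. The interaction of NES was 0.97 in DAXX_KO (SE 0.11, edgeR adjusted p = 9.18e-06) and 0.78 in ATRX_KO (SE 0.20, edgeR adjusted p = 0.0144). That of CD44 was 0.40 in DAXX_KO (SE 0.078, edgeR adjusted p = 0.00182) and 0.57 in ATRX_KO (SE 0.093, edgeR adjusted p = 0.000757).

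For VIM the interaction was 0.57 in ATRX_KO (SE 0.16, edgeR adjusted p = 0.025), a call that was lost without replicate 1 of ATRX series WT control cells (0.52, adjusted p = 0.0655), replicate 1 or 2 of ATRX_KO control cells (0.47 with adjusted p = 0.0652 and 0.50 with adjusted p = 0.0581) or replicate 2 of ATRX_KO etoposide cells (0.48, adjusted p = 0.0702). In DAXX_KO it was −0.047 (SE 0.18, adjusted p = 0.908). The interaction of TNC in ATRX_KO was 0.29 (SE 0.35, adjusted p = 0.636) with all libraries and 0.79 without replicate 3 of ATRX_KO control cells (adjusted p = 0.0267). The interactions of SOX2, 0.98 (SE 1.2) and 1.13 (SE 0.90), and of CHI3L1, 0.30 (SE 0.57) and −0.52 (SE 0.33), did not pass the test, with adjusted p-values from 0.319 to 0.805.

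Under etoposide the knockout and WT cells were compared in turn. Here 4 of 6 markers were called in DAXX_KO, NES, CHI3L1 and TNC higher and VIM lower, where 53% of all genes were called, 27.9% higher and 25.2% lower. In ATRX_KO 3 of 7 were called, CHI3L1 higher and SOX2 and CD44 lower, where 45.9% were called, 23% higher and 22.9% lower. NES had been lower in DAXX_KO in the absence of etoposide and was 0.62 higher on the log2 scale under etoposide (SE 0.084, edgeR adjusted p = 4.01e-06), and its libraries did not overlap in either condition. CD44, also lower in DAXX_KO in control cells, differed by 0.024 under etoposide (SE 0.056, adjusted p = 0.742).

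CHI3L1 remained the most raised of the list, by 2.91 in DAXX_KO (SE 0.32, edgeR adjusted p = 3.58e-07) and by 1.26 in ATRX_KO (SE 0.22, edgeR adjusted p = 0.00021). SOX2 had 0, 3 and 2 counts in etoposide-treated ATRX_KO cells, and the WT level was 17.1 times higher (95% counting interval 6.999 to 54.4, edgeR adjusted p = 4.78e-06). In DAXX_KO the log2 fold change of SOX2 was −1.22 (SE 0.83, adjusted p = 0.228) and it became −3.46 without replicate 2 of DAXX_KO etoposide cells (adjusted p = 0.0179). VIM was 0.69 lower in DAXX_KO (SE 0.13, edgeR adjusted p = 0.00013), and TNC was 0.51 higher (SE 0.11, edgeR adjusted p = 0.000458), at 62.9, 76.1 and 62.5 CPM, a call lost with all 24 libraries in 1 model (adjusted p = 0.0602). In ATRX_KO, CD44 was 0.21 lower (SE 0.066, edgeR adjusted p = 0.0151), and the call was lost without any 1 of the 3 WT etoposide libraries (−0.17 to −0.19, adjusted p = 0.108, 0.0641 and 0.0616), with no filter on low counts (adjusted p = 0.0564) and with scaling by library totals alone (−0.11, adjusted p = 0.173). NES was 0.28 higher in ATRX_KO (SE 0.15, adjusted p = 0.144), and 0.41 higher and called without replicate 1 of ATRX_KO etoposide cells (adjusted p = 0.0301).

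OLIG2 under etoposide had 21 counts in WT cells and 1 in DAXX_KO, a ratio of 23.5 (95% counting interval 3.78 to 973). In ATRX_KO its log2 fold change against WT was −1.39 (SE 0.56, adjusted p = 0.0525), and −1.77 without replicate 1 of ATRX_KO etoposide cells (adjusted p = 0.0385). The libraries of both knockout lines were below those of their WT cells. OLIG2 was therefore lower in the knockout libraries than in the WT libraries in 3 of the 4 comparisons without overlap, the exception being ATRX_KO control cells. Both DAXX_KO comparisons rest on 0 or 1 count per knockout library. The share of all genes without such overlap was not computed.

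**Figure D4:**
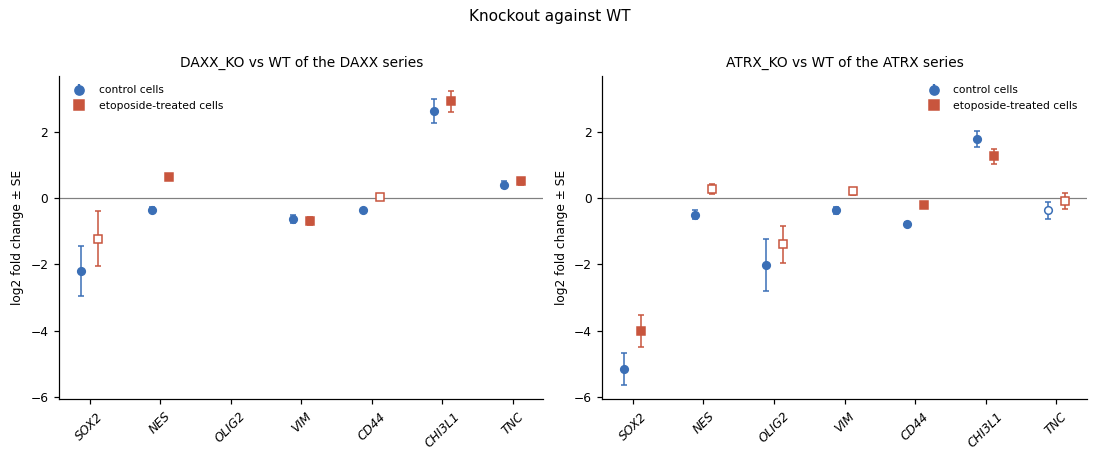
Log2 fold change of knockout against WT with its standard error (y axis) for each tested marker (x axis) in control cells (blue circles) and etoposide-treated cells (red squares), for DAXX_KO (left) and ATRX_KO (right), with filled symbols for an adjusted p under 0.05. CHI3L1 is above zero in all 4 comparisons, SOX2 is lowest in ATRX_KO, and NES is below zero in control cells and above zero under etoposide in DAXX_KO.

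The knockout effects of the 2 lines were set against each other in a model of all 24 libraries, as the DAXX_KO effect minus the ATRX_KO effect. In control cells 3 of 7 markers were called, all positive, where 34.1% of 16674 genes were called, 17% positive and 17.2% negative. SOX2 differed by 2.91 (SE 1.1, edgeR adjusted p = 0.0449), TNC by 0.78 (SE 0.30, edgeR adjusted p = 0.0488) and CD44 by 0.41 (SE 0.080, edgeR adjusted p = 0.000239), so that the falls of SOX2 and CD44 were smaller in DAXX_KO. The calls of SOX2 and TNC were lost without most single libraries, with edgeR adjusted p-values up to 0.284 without replicate 1 of DAXX_KO control cells for SOX2 and up to 0.161 without replicate 1 of ATRX_KO control cells for TNC. OLIG2, also tested here, was negative and not called with all libraries. It was called at −4.51 without replicate 3 of ATRX_KO control cells (edgeR adjusted p = 0.0443).

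Under etoposide 3 of 7 were called, 2 positive and 1 negative, where 34.5% of all genes were called, 17.7% positive and 16.8% negative. VIM differed by −0.90 (SE 0.19, edgeR adjusted p = 0.000642), CHI3L1 by 1.64 (SE 0.37, edgeR adjusted p = 0.00119) and CD44 by 0.22 (SE 0.081, edgeR adjusted p = 0.0404). CD44 was no longer called without 8 of the 12 libraries compared, with adjusted p-values up to 0.132 without replicate 2 of DAXX_KO etoposide cells. OLIG2 was again negative and not called, and was called at −4.85 without that same library (edgeR adjusted p = 0.0453). SOX2 differed by 2.74 (SE 1.1, adjusted p = 0.0542), and it was called without replicate 2 of DAXX series WT etoposide cells (3.52, adjusted p = 0.0218), replicate 1 or 3 of DAXX_KO etoposide cells (adjusted p = 0.0179 and 0.0349) or replicate 2 of ATRX_KO etoposide cells (adjusted p = 0.0494).

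The WT cells of the 2 series, which carry the same genotype label, differed in some of these genes. In control cells CHI3L1 was 1.69 lower on the log2 scale in the DAXX series (SE 0.35, edgeR adjusted p = 0.00211) and TNC was 0.72 lower (SE 0.21, edgeR adjusted p = 0.0257), so 2 of 7 markers were called where 13.2% of all genes were called, 6.01% higher and 7.22% lower. SOX2 was 1.37 lower there (SE 0.47, adjusted p = 0.0563), with its libraries of the 2 series apart. The TNC call was lost without replicate 2 or 3 of DAXX series WT control cells (adjusted p = 0.0734 and 0.119) or replicate 1 or 3 of ATRX series WT control cells (adjusted p = 0.0992 and 0.0575). Under etoposide CHI3L1 was 1.87 lower (SE 0.31, edgeR adjusted p = 0.00014), VIM 0.41 higher (adjusted p = 0.0407) and CD44 0.17 lower (adjusted p = 0.0389), where 15.9% of all genes were called, 7.42% higher and 8.44% lower. The VIM call was lost without any 1 of 5 of the 6 libraries and the CD44 call without any 1 of the 6. The higher CHI3L1 of the ATRX series WT cells (1.61 ± 0.303 CPM, against 0.491 ± 0.233 CPM in the DAXX series, SD, n = 3) is the base against which ATRX_KO was compared. Whether the series or the cultures of their WT cells differ cannot be told apart.

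The other genes of the same programmes were read from lists of 15 neural stem and progenitor genes, 14 astrocyte genes, 15 oligodendrocyte progenitor and proneural genes, 24 mesenchymal glioblastoma genes, 19 mesenchymal transcription factors and 12 intermediate filament genes, with the 10 markers themselves left out. In control cells most lists held genes called in both directions. In the filament list 3 of 5 tested genes were called lower in DAXX_KO and 3 of 6 in ATRX_KO, and none higher. The oligodendrocyte progenitor and proneural list also had none higher in DAXX_KO, with 2 of 6 lower. The share called can be read against 53.4% of all genes in DAXX_KO, 26.7% higher and 26.6% lower. In ATRX_KO 41.8% of all genes were called, 20.8% higher and 21% lower. The list medians stand beside medians of all genes of 0.016 in DAXX_KO and 0.019 in ATRX_KO.

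Of the neural stem and progenitor genes, 11 were tested in DAXX_KO, with 5 higher and 3 lower (median log2 fold change 0.37), and 10 in ATRX_KO, with 1 higher and 5 lower (median −0.37). SOX9, a transcription factor of glial progenitors, fell by 1.35 in DAXX_KO (edgeR adjusted p = 3.69e-09) and by 1.47 in ATRX_KO (edgeR adjusted p = 1.1e-07), from 102 ± 5.69 to 39.0 ± 7.65 CPM and from 151 ± 10.6 to 54.3 ± 12.1 CPM. ITGA6, the laminin receptor subunit alpha 6 used to enrich glioma stem cells, went from 43 to 59 counts per library in WT to 0 to 4 in DAXX_KO, and from 134 to 163 in WT to 6 to 21 in ATRX_KO (edgeR adjusted p = 8.12e-07 and 1.2e-06). Of the 4 genes called in the same direction in both lines, 3 were lower and 1 higher. The mean of NOTCH1 went from 1.36 to 2.92 CPM in DAXX_KO and from 1.77 to 4.91 CPM in ATRX_KO. That of BMI1 went from 34.0 to 56.7 CPM and from 34.1 to 35.2 CPM. SOX1 and FABP7 were at or under 3 counts in all libraries.

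Among the astrocyte genes, 4 of 8 tested were higher and 2 lower in DAXX_KO (median 0.37) and 3 of 9 were higher and 3 lower in ATRX_KO (median 0.17). NFIA, a transcription factor of astrocyte development, rose by 1.14 in DAXX_KO and 1.48 in ATRX_KO, and GJA1, the gap junction protein connexin of astrocytes, by 1.92 and 0.58. GLUL, which makes glutamine from glutamate, fell by 1.61 and 0.27. Their edgeR adjusted p-values ranged from 6.7e-12 to 0.00993. AQP4, the astrocyte water channel, was at or under 3 counts everywhere.

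Among the oligodendrocyte progenitor and proneural genes, OLIG1, SOX10, NKX2-2 and SOX8 were at or under 3 counts in all libraries. Of the genes tested, 0 of 6 were higher and 2 lower in DAXX_KO (median −0.84), and 1 of 5 was higher and 2 lower in ATRX_KO (median −0.17). SOX4, a transcription factor of neural precursors, went from 232 ± 14.2 to 3.24 ± 1.24 CPM in DAXX_KO (where it fell by 6.14 on the log2 scale, SE 0.14) and from 339 ± 26.1 to 72.0 ± 3.28 CPM in ATRX_KO (where it fell by 2.23, SE 0.092), with edgeR adjusted p-values of 1.56e-16 and 1.3e-11. PDGFRA, the growth factor receptor of these progenitors, had 56 counts in WT control cells and 2 in DAXX_KO, a ratio of 25.2 (95% counting interval 6.67 to 214), and 96 and 5 counts in the ATRX series, a ratio of 19.0 (7.86 to 59.8).

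All 24 mesenchymal glioblastoma genes were tested in both series. In DAXX_KO 8 were higher and 9 lower (median 0.039), and in ATRX_KO 7 were higher and 13 lower (median −0.28), of which 10 were called with the same direction in both lines, 4 higher and 6 lower. Of all 15039 genes tested in both series, 23.4% were called in the same direction in both lines, 10.7% higher and 12.7% lower. SPP1, the secreted matrix protein osteopontin, rose from 11.7 ± 1.55 to 79.5 ± 6.78 CPM in DAXX_KO and from 6.40 ± 1.27 to 55.9 ± 7.38 CPM in ATRX_KO. THBS1, the matrix protein thrombospondin, fell from 88.7 ± 10.3 to 5.07 ± 0.355 CPM and from 103 ± 11.4 to 2.63 ± 0.250 CPM. Their edgeR adjusted p-values ranged from 2.62e-15 to 5.4e-11. The summed level of the list was 16833 to 18080 CPM in DAXX series WT control libraries and 13522 to 13988 in DAXX_KO, and 16205 to 17094 in ATRX series WT and 12411 to 12892 in ATRX_KO.

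The mesenchymal transcription factors split as well, with 8 of 17 tested higher and 5 lower in DAXX_KO (median 0.26) and 7 higher and 6 lower in ATRX_KO (median 0.089). CEBPB and CEBPD, factors of the acute-phase response, rose by 0.74 and 1.46 in DAXX_KO and by 2.19 and 1.25 in ATRX_KO, and RELB, an NF-kB subunit, by 1.32 and 2.08. Their edgeR adjusted p-values ranged from 3.88e-10 to 0.000238. The values of CEBPD in ATRX_KO were spread from 152 to 406 counts. Of the 11 factors called in the same direction in both lines, 7 were higher and 4 lower. The mean of FOSL1 went from 292 to 116 CPM in DAXX_KO and from 277 to 192 CPM in ATRX_KO. That of RUNX1 went from 57.6 to 31.7 CPM and from 65.9 to 29.7 CPM. TWIST2 was at or under 3 counts in all libraries. Of the intermediate filament genes, KRT8, a keratin, fell by 2.42 in DAXX_KO and 0.63 in ATRX_KO, and LMNA, the nuclear lamin, by 0.46 and 1.17 (edgeR adjusted p-values from 2.44e-10 to 0.00181). DES was at or under 3 counts everywhere, and NEFL had no matching identifier in the table.

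**Figure D5:**
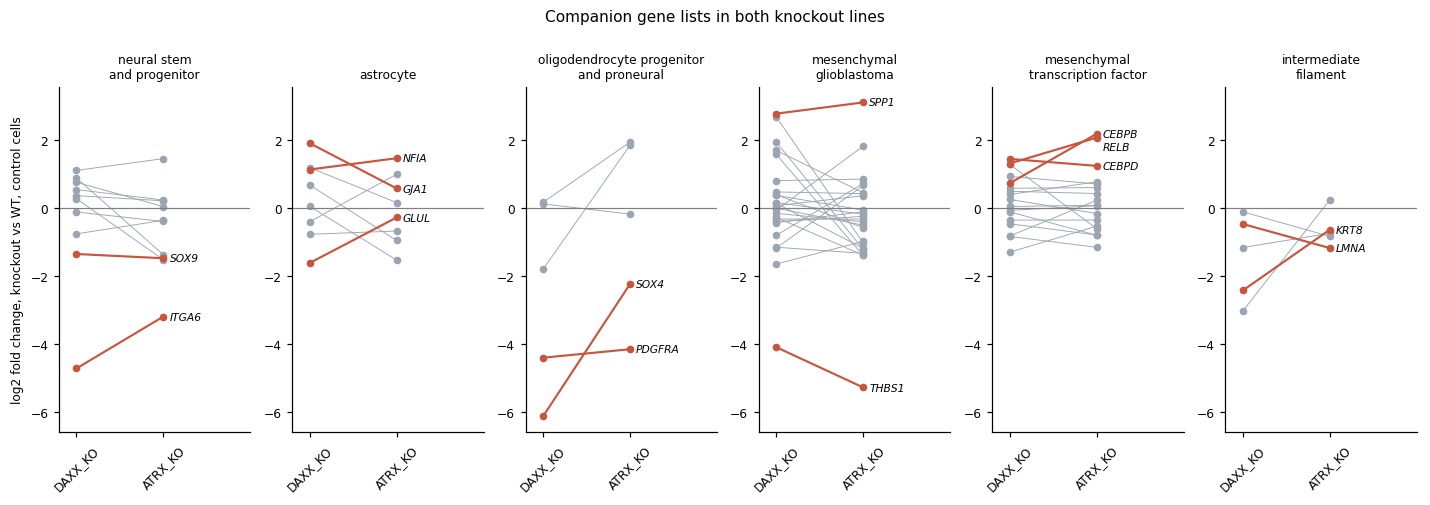
Log2 fold change of knockout against WT in control cells (y axis) of each gene of 6 companion lists that was tested in both series, with a line from DAXX_KO to ATRX_KO for each gene (x axis) and the genes named in the text in red. SOX4, PDGFRA and ITGA6 are low in both lines, SPP1 is high and THBS1 low in both, and 10 of the 24 mesenchymal glioblastoma genes were called in the same direction in both, beside 23.4% of all genes tested in both series.

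Of all genes tested, etoposide changed 60.2% in WT cells of the DAXX series, with 29.6% up and 30.6% down. The share was 61.5% in WT cells of the ATRX series, with 31.7% up and 29.8% down. The neural stem and progenitor list had 4 genes higher and 6 lower of 11 in the DAXX series (median −0.77) and 4 higher and 5 lower of 10 in the ATRX series (median −0.62). The mesenchymal transcription factors had 4 higher and 10 lower of 17 (median −0.71) and 4 higher and 9 lower of 17 (median −0.51). The mesenchymal glioblastoma list had 5 higher and 8 lower of 24 (median −0.053) and 4 higher and 9 lower of 24 (median −0.15), beside medians of all genes of 0.023 and 0.068. The filament list had 2 of 5 and 3 of 6 higher and none lower. The astrocyte list had 2 higher and 4 lower of 8 and 3 higher and 4 lower of 9, and the oligodendrocyte progenitor list 2 higher and 3 lower of 6 and 2 higher and 1 lower of 5.

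Likeness to other genes was measured as Pearson's r over the 8 group means of log2 CPM, among genes whose range over the groups was 0.5 to 2 times that of the marker. The 8 means share libraries, scaling and treatment, so the values are descriptions. CHI3L1 was closest to CHI3L2, its paralog at chr1:111743393-111786062 (r = 0.994 over 8 means), which rose from 1.47 ± 0.479 to 5.53 ± 0.263 CPM in DAXX_KO control cells and from 3.44 ± 0.443 to 7.66 ± 0.438 CPM in ATRX_KO control cells (edgeR adjusted p = 2.58e-05 and 1.94e-05). The next was SH3GL1P1 (r = 0.974), a pseudogene by its annotated name whose reads may be shared with its parent.

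VIM was closest to EEF1E1 (r = 0.997) and PRELID2 (r = 0.994), and CD44 to CAPZA2 and RDX (r = 0.994 for both), an actin capping subunit and the membrane linker radixin. NES was closest to HMGB1P5 (r = 0.993), a pseudogene whose reads may be shared with its parent, and to the splicing protein gene SNRPB (r = 0.986). SOX2 was closest to CNIH2 (r = 0.974) and TNFRSF11B (r = 0.973), and TNC to DLG4 (r = 0.919) and ILKAP (r = 0.892). Among the markers themselves, CD44 followed VIM and NES (r = 0.923 and 0.922), and VIM followed NES (r = 0.850). CHI3L1 ran opposite to SOX2 (r = −0.648), and the other pairs lay between −0.545 and 0.503.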

How the data were processed

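RNA of 24 libraries was sequenced as 75-base single-end reads from the 3′ end of transcripts. Per the study's methods and the submitters' processing notes, the authors aligned reads to hg19 with STAR and deposited estimated counts (RSEM expected counts, not normalized) per Ensembl gene (RSEM 1.2.3 in the notes), and all deposited values were whole numbers. A 3′ tag carries no transcript length, so levels were compared between groups and not between genes. Whether counting used strand is not given in the sources used here. Libraries were grouped by their titles, since the genotype field of the DAXX KO libraries names ATRX. Symbols were matched for 55501 of 57736 identifiers, which hold 98.783% of counts.

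Each series was fitted with edgeR 4.0.16 (R 4.3.3; quasi-likelihood test, TMM, filterByExpr with a minimum count of 10 and total of 15, Benjamini-Hochberg over all genes, FDR 5%), with the SE taken as the absolute log2 fold change over the square root of F. Comparisons between series used 1 model of all 24 libraries (16674 genes). Levels are CPM on TMM-scaled totals, with a floor of 3 counts in each library. Intervals of count ratios are exact 95% intervals and, like the floors, cover counting error only, as no molecular identifiers were counted.

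The members, lists and tests were chosen with earlier results of these data known. All 10 markers were named. From each companion list, up to 2 genes with the largest change in each knockout line were named among those called in the same direction in both, and the 2 genes most like each marker were those with the highest r over 8 group means of log2 CPM (prior count 2). The models were tested on simulated data with a small share of genes changed, by larger folds than many given here. They called most but not all of the genes changed, fewest in the comparison between lines, and none with the wrong sign. Small changes, and scaling where a large share of genes changes, were not tested in this way. DESeq2 1.42.0, other scalings and filters, a replicate block and leaving out libraries were tried as alternatives. Libraries of a group differed by more than sampling noise (chi-square per degree of freedom 2.16 to 17.1 over 24 pairs). The 36 correlations of deviations between same-numbered libraries lay between −0.224 and 0.0485 and showed no pairing by replicate number. Whether same-numbered libraries were handled together is not given in the labels.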

Additional observations from a re-analysis of the deposited data

Results flagged for a closer look

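The response to etoposide differed between knockout and WT cells of the same series for 5 gene and line pairs, by an edgeR test of the difference itself. In the DAXX series the fall with etoposide was smaller in the knockout cells by 0.97 on the log2 scale for NES (adjusted p = 9.18e-06) and by 0.40 for CD44 (adjusted p = 0.00182). In the ATRX series it was smaller in the knockout cells by 0.78 for NES (adjusted p = 0.0144), 0.57 for VIM (adjusted p = 0.025) and 0.57 for CD44 (adjusted p = 0.000757). The VIM call was lost without some single libraries.

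The effect of the knockout differed between the DAXX and ATRX lines for 3 genes in each condition, given as the DAXX_KO effect minus the ATRX_KO effect. In control cells the difference was 2.91 for SOX2 (edgeR adjusted p = 0.0449), 0.41 for CD44 (adjusted p = 0.000239) and 0.78 for TNC (adjusted p = 0.0488). Under etoposide it was −0.90 for VIM (edgeR adjusted p = 0.000642), 0.22 for CD44 (adjusted p = 0.0404) and 1.64 for CHI3L1 (adjusted p = 0.00119). The calls of SOX2 and TNC in control cells and of CD44 under etoposide were lost without most single libraries. CHI3L1 under etoposide was at 6.15 CPM in DAXX_KO and 7.10 CPM in ATRX_KO, and at 0.797 and 2.97 CPM in their WT cells. Each line is 1 clone beside its own WT cells, so line, clone and series cannot be told apart.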

How the results depend on the processing

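No value of a marker changed sign while called under any alternative tried. Of the values recomputed for single markers, 1229 kept their side of the threshold, 93 lost the call and 34 gained it. A value called in neither fit was counted as kept whatever its sign. The markers called went from 3 to 5 in ATRX_KO against WT under etoposide with all 24 libraries in 1 model, from 2 to 1 between the WT control cells with at least 10 counts required in every library, and from 3 to 1 in the difference between the knockout effects in control cells with the replicate block. Leaving out single libraries gave 2 to 5, 1 to 2 and 1 to 3 called in these comparisons and 1 to 3 between the etoposide-treated WT cells. With at least 10 counts required in every library CHI3L1 was not tested, as DAXX series WT control cells had 2 to 6 counts. The drop from 2 to 1 was this gene leaving the test. Scaling by library totals alone moved the median of all genes by 0.18 in DAXX_KO against WT control cells, by 0.12 in the difference between the knockout effects in control cells, and by −0.11 both in the etoposide response of DAXX_KO and in its interaction.

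The replicate block also ended the calls of OLIG2 in ATRX_KO control cells (adjusted p = 0.0682) and of its etoposide response in ATRX_KO (0.0599) and in WT cells (0.0518), and those of SOX2 (0.0521) and TNC (0.062) in the difference between the knockout effects in control cells. OLIG2 was called lower in DAXX_KO against WT control cells where it could be tested, with no filter on low counts (adjusted p = 0.000389) or all 24 libraries in 1 model (0.000646). Apart from a gene that a filter left out of the test, the cause of these changes was not tested. Depth limits SOX2, OLIG2 and CHI3L1, and leaves GFAP, PROM1 and S100B untested.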
